A study of Bos taurus with 30 samples.

Results

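The keratins and keratin-associated proteins of bovine skin were taken as all probe sets whose single annotated gene symbol begins with KRT and a digit, or with KRTAP, leaving out KRT14 and KRT15. The array carries 24 such probe sets, for 17 genes, among 24016 probe sets that are not controls and 9155 genes named by a probe set with 1 symbol. Of the 24, 22 belong to keratins of the epidermis and other epithelia, 1 to the hair follicle keratin KRT25 and 1 to the keratin-associated protein KRTAP3-1, and the 3 groups are given apart. The skin came from F2 cattle, bred from Gyr, a Bos indicus breed, and Holstein, a Bos taurus breed, and was biopsied where ticks feed, first with no ticks (0 h), then 24 h and again 48 h into the infestation. The resistant animals gave 5 arrays for 0 h, 6 for 24 h and 5 for 48 h, and the susceptible animals gave 3, 6 and 5 arrays at the same times. All 13 animals (6 resistant and 7 susceptible) are of the same F2 cross, and none was left without ticks, so time after infestation and the passing of time cannot be told apart. Age, sex and how resistance was scored are not given in the sources used here.

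Keratins build the intermediate filaments of epithelial cells, always as a pair of a type I and a type II chain. Basal cells of the epidermis make KRT5, cells that leave the basal layer switch to KRT10, KRT6 and KRT17 are made in the follicle's outer layers and in epidermis that heals or is inflamed, and KRT7, KRT8, KRT18 and KRT19 belong to simple and glandular epithelia such as sweat glands and ducts. Hair keratins and keratin-associated proteins are made inside the growing follicle, where the associated proteins cross-link the filaments of the hair shaft. In whole skin, fewer cells of a type and less RNA per cell cannot be told apart.

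Values are log2 signals, in which a difference of 1 is a doubling. Differences are given with their standard error from limma, a linear model fitted to the 13809 probe sets that reached their array's median on 3 arrays or more, and adjusted p-values run over all of them (threshold 0.05). Array medians lay between 7.16 and 7.40, and precision is limited by how few arrays each group has.

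Of the 24 keratin probe sets, 13 (for 11 genes) passed that filter. They were KRT5, KRT10, KRT23, KRT17, KRT6B, KRT7, KRT18, KRT19, KRT79, KRT25 and KRTAP3-1, with 2 probe sets each for KRT5 and KRT23. The basal and suprabasal markers of epidermis were present in every biopsy: KRT5 (Bt.13162.1.S1_at) ranged from 12.15 to 14.82 and KRT10 from 9.47 to 14.15, both at or above the array median in 30 of 30 arrays. The other 11 probe sets, of KRT3, KRT4, KRT8, KRT20, KRT76 and KRT78, stayed below the median in nearly every array. The 4 probe sets of KRT3, a keratin of the cornea, had means between 2.45 and 5.92. KRT4 (mucosal epithelia) had means of 5.79 and 3.67 in its 2 probe sets, and KRT76 (palate and gum) 1.95 and 4.53. KRT8, the usual partner of KRT18, had a mean of 5.64 and KRT20, a gut keratin, 1.57. KRT78 had a mean of 5.35 and reached its array's median in 1 array. No level of 1 probe set is read against that of another. KRT1, the type II partner of KRT10, was not read, because no probe set carried it as its single annotated symbol.

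None of the 13 keratin probe sets differed between groups past the threshold in any of the 11 comparisons of phenotype and time. In the comparison of resistant with susceptible skin, the same test called 0% of all probe sets at 0 h, 0% at 24 h and 0.0145% (2 of 13809) at 48 h. It called 0% in each comparison of times within a phenotype and in both differences of response. At an unadjusted p under 0.05 limma held 1 of 13 keratin probe sets in resistant against susceptible skin at 0 h (4.51% of all probe sets), 1 at 24 h (4.4%) and 0 at 48 h (10.1%). In resistant skin that count was 1 for 24 h against 0 h (4.72%), 1 for 48 h against 0 h (11%) and 0 for 48 h against 24 h (9.65%). In susceptible skin it was 0 in all 3 comparisons of times, against 2.3%, 0.949% and 1.88% of all probe sets. The members named below were those with the smallest p in each comparison, and their values are given as measured.

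**Figure D1:**
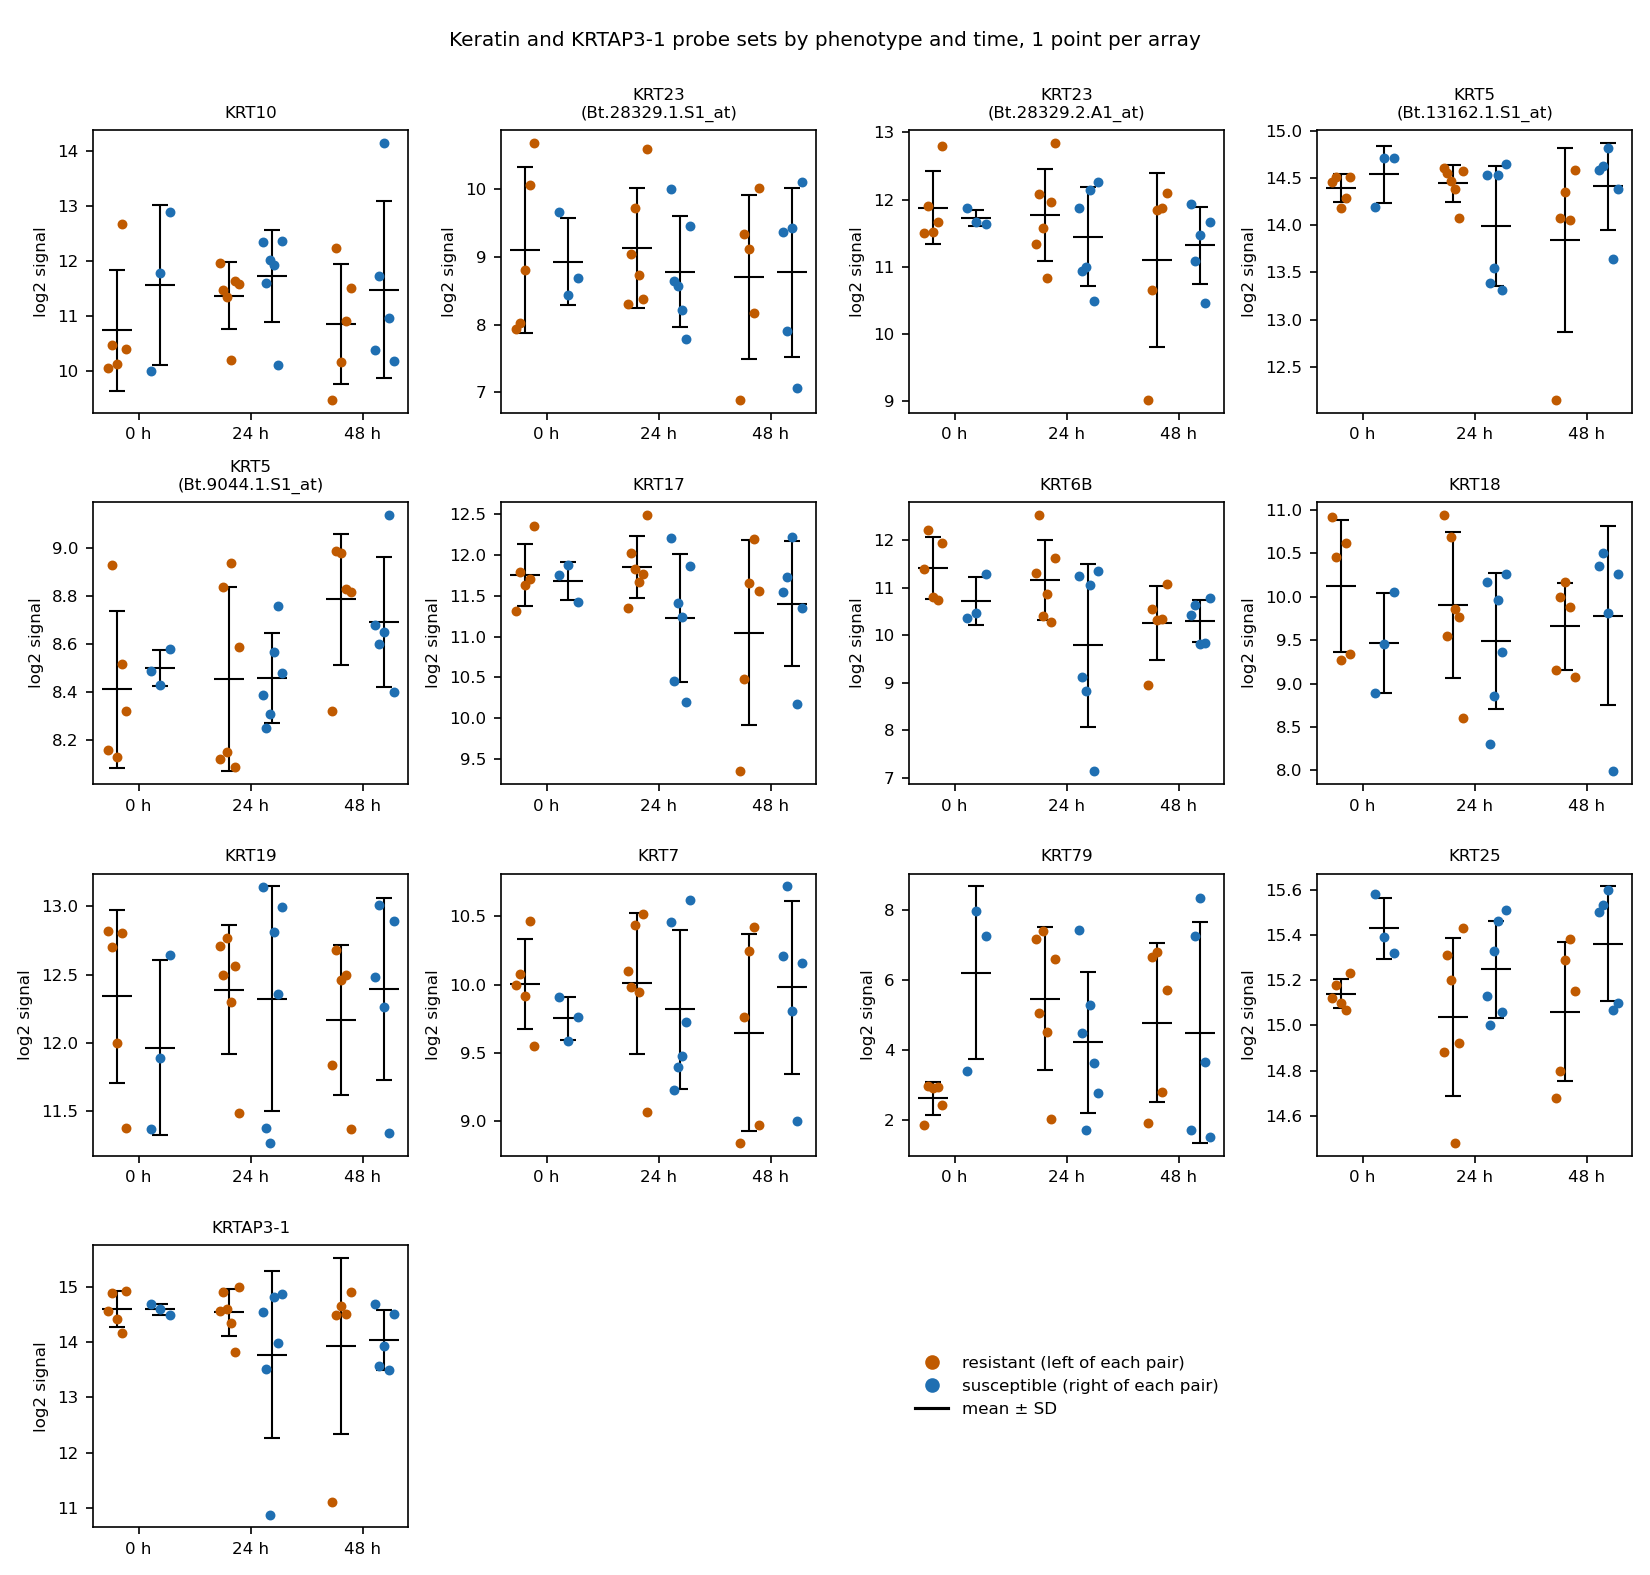
Log2 signal (vertical axis, 1 panel per probe set with its own scale) of the 13 keratin probe sets at 0 h, 24 h and 48 h, with 1 point per array, resistant left of susceptible, and bars for the mean and SD. The resistant and susceptible points of the same time overlap in every panel except KRT79 and KRT25 at 0 h.

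Before infestation, KRT79 and KRT25 were the only 2 of the 13 whose resistant and susceptible arrays did not overlap, and both were lower in resistant skin. Over all probe sets 3.16% lay lower in resistant skin without overlap at 0 h, and 4.62% did so in either direction, with 5 arrays against 3. At 24 h and 48 h no keratin probe set separated the phenotypes, against 0.167% and 1.19% of all probe sets. KRT79 is a type II keratin that in mice marks cells of the hair canal and the sebaceous duct. It had 1.87, 2.97, 2.91, 2.95 and 2.44 in the 5 resistant arrays, against 3.41, 7.98 and 7.25 in the 3 susceptible arrays. Susceptible animal 9 thus sat near the resistant arrays and the other two far above. The difference was -3.59 ± 1.60 (95% interval -6.86 to -0.32; limma adjusted p = 1), and it was -2.70 without susceptible animal 10. The resistant values are far below the array medians, and with 16 added to the linear signal, which damps such low values, the difference was -2.25.

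At the later times both phenotypes held low and high KRT79 arrays. At 24 h its lowest, median and highest values were 2.04, 5.84 and 7.40 in the 6 resistant arrays, against 1.73, 4.05 and 7.44 in the 6 susceptible arrays. At 48 h it had 1.92, 6.67, 6.79, 2.80 and 5.73 in resistant skin, against 1.72, 7.25, 8.34, 3.66 and 1.53 in susceptible skin. Both phenotypes then spanned nearly the whole range of the probe set, and the differences were 1.24 ± 1.26 at 24 h and 0.28 ± 1.38 at 48 h. Leaving out 1 array at a time, they ran from 0.74 to 1.93 and from -0.46 to 1.24. Within resistant skin the 24 h arrays were 2.84 ± 1.32 above the 0 h arrays (limma adjusted p = 1). The response at 24 h differed between resistant and susceptible animals by 4.83 ± 2.03 (limma adjusted p = 1; 3.03 with the added 16), where 1 of 13 keratin probe sets and 1.85% of all probe sets had an unadjusted p under 0.05. The response at 48 h differed by 3.87 ± 2.11 (adjusted p = 1), and there the counts were 0 of 13 and 2.93%.

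KRT79 also swung within single animals. In the order of time, resistant animal 1 had 1.87, 7.17 and 1.92, and susceptible animal 10 had 7.98, 1.73 and 8.34. The probe set reached its array's median in 5 of 30 arrays, so most of its values are low signals. Across the 30 arrays, KRT79 had a Pearson correlation of 0.81 with the mean of 5 sebaceous gland genes, a list that includes SCD and FASN, enzymes that make sebum lipids. That was 0.73 over the 12 arrays at 24 h, each from another animal, and 0.80 without resistant animal 1 at 48 h. It was the highest of its correlations with 12 lists of cell type and structure genes, and the next was 0.60, with cornified envelope genes. Over the 12 arrays at 24 h the latter was 0.68. For hair follicle genes other than keratins the correlation over 30 arrays was -0.08. The arrays share animals, and these correlations are descriptions. The sebaceous list itself spanned 10.70 to 11.31 in resistant skin and 11.15 to 12.05 in susceptible skin at 0 h. Its part in the KRT79 values was not tested.

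KRT25, a type I keratin of the inner root sheath that surrounds the growing hair, was lower in resistant skin on average at all 3 times. At 0 h it had 15.12, 15.18, 15.10, 15.07 and 15.23 in resistant skin, against 15.58, 15.39 and 15.32 in susceptible skin, a difference of -0.29 ± 0.18 (adjusted p = 1). The resistant arrays were tightly grouped and all below the susceptible ones. At 24 h the lowest, median and highest values were 14.48, 15.06 and 15.43 in resistant skin, against 15.00, 15.23 and 15.51 in susceptible skin (difference -0.21 ± 0.14, and -0.10 without resistant animal 4). At 48 h it had 14.68, 14.80, 15.29, 15.38 and 15.15 in resistant skin, against 15.50, 15.53, 15.60, 15.07 and 15.10 in susceptible skin (-0.30 ± 0.15, adjusted p = 0.51). From 24 h on, the phenotypes overlapped, and without resistant animal 1 the 48 h difference was -0.20.

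Averaged over the 3 times with the animal as a random block, a comparison added after these values were seen, KRT25 differed by -0.26 ± 0.10 in resistant minus susceptible skin (limma adjusted p = 0.431). In that comparison 1 of 13 keratin probe sets and 9.06% of all probe sets had an unadjusted p under 0.05, and 0% of all passed. After quantile normalization, which gives every array the same distribution of values, the difference was -0.09 (adjusted p = 0.817), with -0.05 at 0 h and -0.19 at 48 h. KRT25 values lay between 14.48 and 15.60, close to the highest value on any array, 15.76, and whether the scanner's limit bounds them was not tested. Across arrays KRT25 followed the mean of 10 hair follicle genes that are not keratins (r = 0.69 over 30 arrays, 0.75 over the 12 arrays at 24 h). Of these 10 genes, 2 were lower in resistant skin at 0 h (median difference 0.18), 4 at 24 h (0.03) and 9 at 48 h (-0.34, against -0.04 over all probe sets), and 0 passed. Without resistant animal 1 the 48 h median was -0.11. At 0 h, when KRT25 was lower in every resistant array, most of these genes were higher in resistant skin on average. Without resistant 0 h array 5 their median difference at that time was 0.02. LPAR6, a lipid receptor needed for hair growth in humans, had -0.48 ± 0.21 at 48 h (adjusted p = 0.461). Their part in the KRT25 values was not tested.

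KRTAP3-1, a high-sulphur protein of the hair shaft, was even across most arrays and far lower in a pair of them. At 0 h it had 14.56, 14.89, 14.41, 14.16 and 14.93 in resistant skin, against 14.69, 14.60 and 14.49 in susceptible skin (-0.01 ± 0.68). At 24 h its lowest, median and highest values were 13.82, 14.58 and 14.99 in resistant skin, against 10.88, 14.26 and 14.87 in susceptible skin. At 48 h it had 11.11, 14.49, 14.65, 14.51 and 14.90 in resistant skin, against 14.68, 13.56, 13.92, 13.49 and 14.51 in susceptible skin. The low arrays were susceptible animal 10 at 24 h and resistant animal 1 at 48 h, and the other arrays of both animals read 13.92 or more. The difference at 24 h was 0.77 ± 0.53 (adjusted p = 0.978), and 0.19 without susceptible animal 10. Within resistant skin the 48 h arrays were -0.66 ± 0.59 relative to 0 h (adjusted p = 0.693), and 0.05 without animal 1.

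KRT6B, a keratin that healing epidermis switches on and that the follicle's outer root sheath makes in resting skin, had the largest difference between phenotypes at 24 h. Its lowest, median and highest values were 10.29, 11.10 and 12.54 in the 6 resistant arrays, against 7.13, 10.08 and 11.35 in the 6 susceptible arrays. It averaged 11.18 ± 0.84 in resistant skin and 9.79 ± 1.71 in susceptible skin (SD, n = 6 each), a difference of 1.39 ± 0.53 (95% interval 0.30 to 2.48; limma adjusted p = 0.978). Susceptible animals 9, 10 and 12 lay at 9.11, 8.82 and 7.13 and the other 3 inside the resistant range. Without susceptible animal 12 the difference was 0.86. At 0 h KRT6B averaged 11.42 ± 0.65 in resistant skin and 10.72 ± 0.51 in susceptible skin (SD, n = 5 and 3).

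In resistant skin, the mean of KRT6B was lower at 48 h than before infestation. At 48 h it had 8.96, 10.56, 10.33, 10.34 and 11.09, against 11.40, 12.21, 10.81, 10.75 and 11.94 at 0 h, a difference of -1.17 ± 0.58 (95% interval -2.36 to 0.03; limma adjusted p = 0.46). Resistant animals 1 and 2 read over 1 log2 unit less at 48 h than they had at 24 h, and animals 3 and 5 changed by -0.07 and 0.04. Without the 48 h array of animal 1 the difference was -0.85. The fit does not pair arrays of the same animal. Over 9 alternatives, some with the animal as a block, the difference ran from -1.45 to -1.13 (limma adjusted p from 0.0879 to 0.58). Resistant and susceptible skin at 48 h had means of 10.25 and 10.30.

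**Figure D2:**
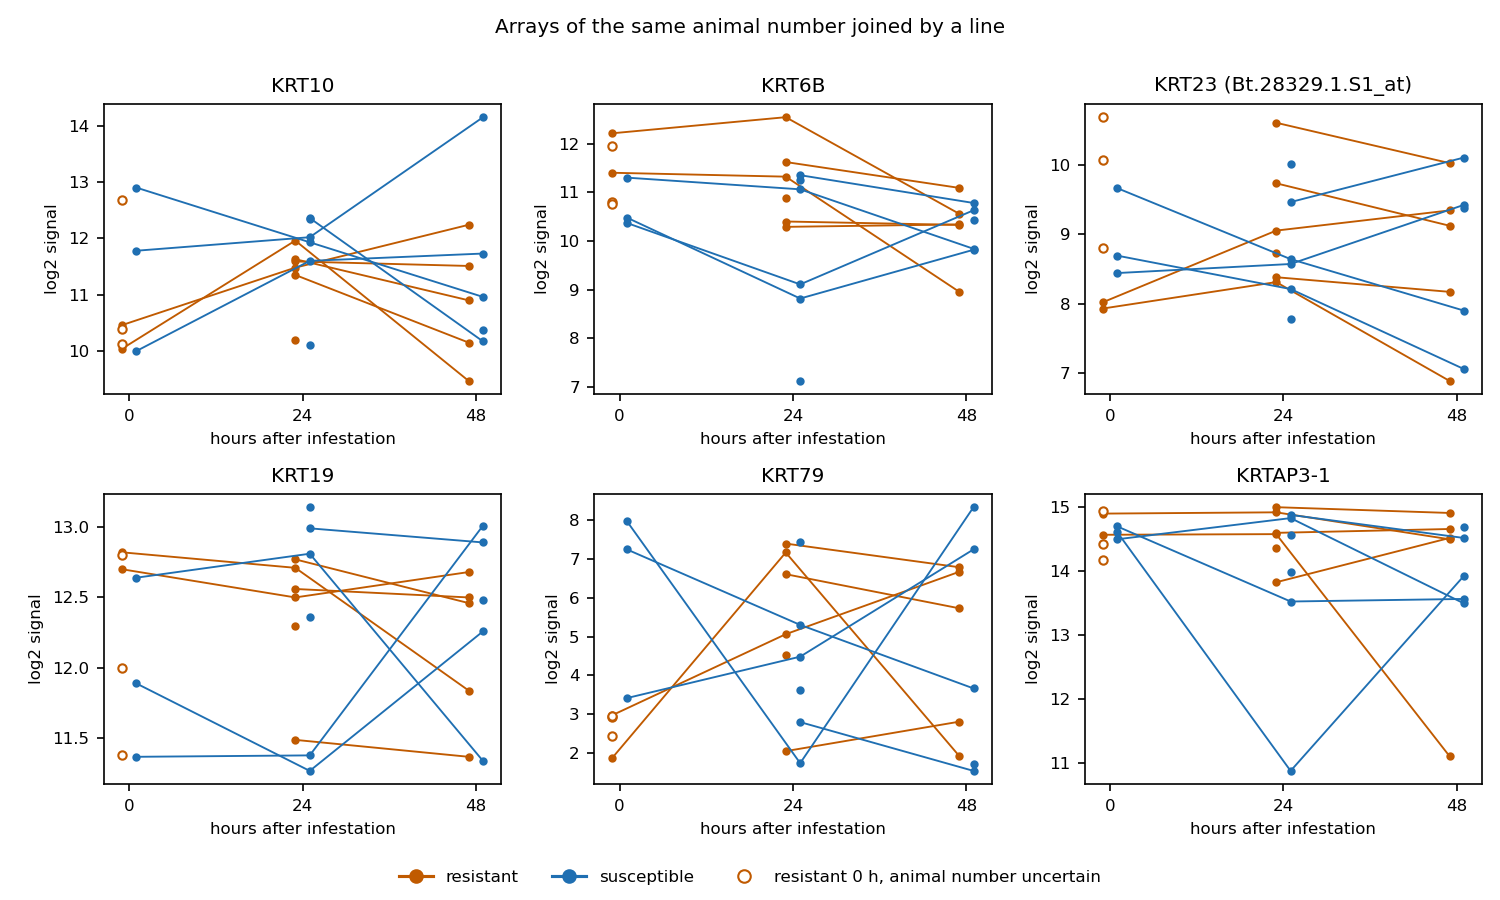
Log2 signal of 6 keratin probe sets against hours after infestation, with arrays of 1 animal number joined by a line, resistant and susceptible in 2 colours, and open circles for resistant 0 h arrays 3, 4 and 5, whose number is in doubt. KRT6B lines of resistant animals 1 and 2 drop between 24 h and 48 h, and the KRT79 lines cross the whole panel in both phenotypes.

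KRT17, a type I keratin made in the outer root sheath and in wounded epidermis, had a mean that was likewise higher in resistant skin at 24 h. It averaged 11.85 ± 0.38 in resistant skin and 11.23 ± 0.78 in susceptible skin (SD, n = 6 each), a difference of 0.62 ± 0.38 (limma adjusted p = 0.978). At 48 h the resistant arrays had 9.35, 10.48, 11.65, 12.20 and 11.56, against a lowest, median and highest of 11.35, 11.79 and 12.49 at 24 h. Animals 1 and 2 were again the low ones, and the difference was -0.81 ± 0.40 (limma adjusted p = 0.52), or -0.38 without animal 1 at 48 h. Relative to 0 h it was -0.71 ± 0.41, or -0.29 without animal 1.

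KRT5, the type II keratin of the basal layer, was read by 2 probe sets whose 48 h differences had opposite signs. Bt.13162.1.S1_at had 12.15, 14.08, 14.35, 14.05 and 14.58 in resistant skin at 48 h, against 14.46, 14.51, 14.18, 14.29 and 14.51 at 0 h (-0.55 ± 0.32, limma adjusted p = 0.527, and -0.13 without animal 1). Bt.9044.1.S1_at had 8.32, 8.99, 8.98, 8.83 and 8.82 at 48 h, against 8.16, 8.93, 8.13, 8.52 and 8.32 at 0 h (0.38 ± 0.18, limma adjusted p = 0.446). The first probe set was also lower at 48 h than at 24 h (-0.60 ± 0.31), but by -0.18 without animal 1 at 48 h. The second was higher in 5 of 5 resistant animals at 48 h than at 24 h (difference 0.33 ± 0.17) and in 3 of 4 susceptible animals. Across 30 arrays their correlation was 0.07.

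The first KRT5 probe set followed the epidermal genes. Its correlation was 0.85 with the mean of 5 genes of terminal differentiation and 0.78 with that of 9 desmosome and linker genes. The second had -0.06 and -0.26 with these lists, and its highest correlation was 0.47, with endothelial genes. Whether both probe sets read the KRT5 transcript was not tested. For the first, the difference of resistant minus susceptible skin was 0.45 ± 0.29 at 24 h and -0.57 ± 0.32 at 48 h (adjusted p = 0.978 and 0.549). Without resistant animal 1 the 48 h difference was -0.15. In susceptible skin it was -0.55 ± 0.36 at 24 h relative to 0 h.

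KRT10, the type I keratin of cells that have left the basal layer, varied over 4.69 log2 units with no difference between groups past the test. At 0 h it had 10.04, 10.46, 10.12, 12.68 and 10.39 in resistant skin, against 10, 11.78 and 12.90 in susceptible skin (-0.82 ± 0.75). At 48 h it had 9.47, 12.24, 10.15, 10.90 and 11.51 in resistant skin, against 10.38, 11.73, 14.15, 10.96 and 10.17 in susceptible skin (-0.62 ± 0.65). At 24 h the difference was -0.36 ± 0.60. Susceptible animal 10 alone reached 14.15, and read 11.78 and 12.02 at the earlier times. Single arrays set these values: the 48 h difference was 0.04 without that array, the 0 h difference -0.15 without susceptible animal 11, and the 24 h difference -0.13 without resistant animal 4. Across arrays the highest correlations of KRT10 with the lists were 0.63 (sebaceous) and 0.53 (cornified envelope), and the lowest was -0.58 (macrophage). With KRT79 it had 0.56. Over the 12 arrays at 24 h the order differed, with 0.66 for desmosome, 0.59 for cornified envelope and 0.52 for hair follicle genes. Fibroblast genes had 0.36 and the sebaceous list 0.35 there, and the lowest were -0.52 for endothelial and -0.44 for macrophage genes.

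KRT23 is a type I keratin read by 2 probe sets, which had a correlation of 0.68 with each other. Bt.28329.2.A1_at had 9.02, 10.66, 11.84, 11.88 and 12.10 in resistant skin at 48 h, against 11.50, 11.91, 11.52, 11.67 and 12.80 at 0 h. The difference was -0.78 ± 0.45 (adjusted p = 0.527), and -0.26 without animal 1. Over 9 alternatives, some with the animal as a block, it ran from -1.36 to -0.77 (limma adjusted p from 0.115 to 0.644). Bt.28329.1.S1_at varied mostly between animals once the group means of phenotype and time were taken out. Of the variance then left over 9 animals with arrays at both 24 h and 48 h, 86% lay between animals. Over all probe sets the median of this share was 61.9%. The share does not compare animals with times, whose means were removed first. Resistant animal 6 had 10.60 and 10.02 at those times, and resistant animal 1 had 8.31 and 6.89.

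The keratins of simple and glandular epithelia, KRT7, KRT18 and KRT19, did not differ between phenotypes past the test at any time. KRT19 averaged 12.34, 12.39 and 12.17 in resistant skin at 0 h, 24 h and 48 h, and 11.97, 12.32 and 12.40 in susceptible skin. KRT18 averaged 10.12, 9.90 and 9.66 in resistant skin and 9.47, 9.49 and 9.78 in susceptible skin. KRT7 averaged 10.01, 10.01 and 9.65 in resistant skin, and 9.75, 9.82 and 9.98 in susceptible skin. The largest of their differences between phenotypes by p was for KRT18 at 0 h (0.65 ± 0.54, adjusted p = 1), and it was 0.36 without susceptible animal 9. The 48 h response differed by -0.77 ± 0.71 for KRT18 and by -0.59 ± 0.50 for KRT7 (adjusted p = 1 for both). Leaving out 1 array at a time, these ran from -1.22 to -0.49 for KRT18 and from -0.83 to -0.38 for KRT7, the extremes being without susceptible animal 11 at 48 h in both, without susceptible animal 9 at 0 h for KRT18 and without resistant animal 1 at 48 h for KRT7.

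These 3 keratins varied together from array to array. KRT18 and KRT19 had a correlation of 0.88, KRT19 and KRT7 0.77, and KRT18 and KRT7 0.76, and none of the values changed by over 0.02 without resistant animal 1 at 48 h. Resistant animal 6 was low in KRT19 at 24 h and 48 h (11.49 and 11.37), as was susceptible animal 9 at 0 h and 24 h (11.37 and 11.38) before it read 13.01 at 48 h. A second set of probe sets consisted of KRT5 (Bt.13162.1.S1_at), KRT17, KRT23 (Bt.28329.2.A1_at), KRT6B and KRTAP3-1. Within it KRT23 and KRT17 had 0.85, KRT5 and KRT17 0.80, and KRT5 and KRTAP3-1 0.76, which were 0.77, 0.68 and 0.60 without that array. The lowest pair of this set was KRT17 and KRTAP3-1 with 0.55, which was 0.32 without that array. Of all 78 pairs, 70 were above 0, 19 above 0.5 and 9 above 0.7, with a median of 0.26. The sets were chosen from these values and carry no test.

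**Figure D3:**
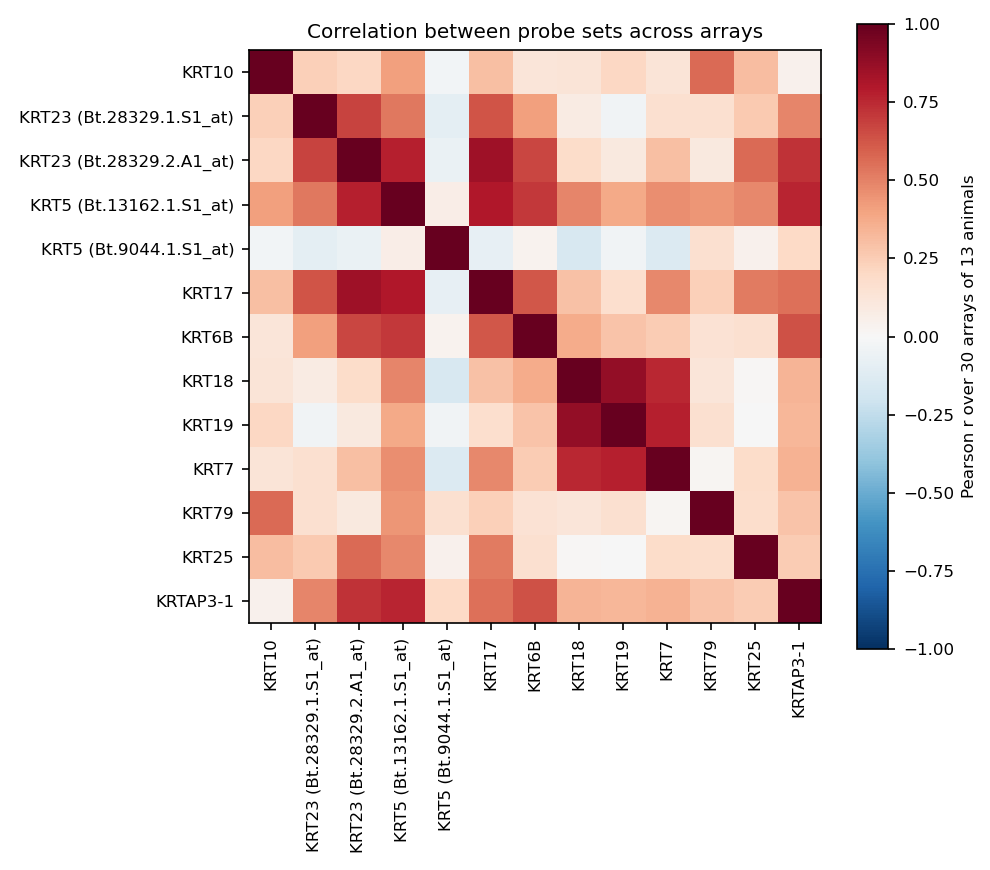
Pearson correlation (colour, from -1 to 1) between the 13 keratin probe sets over 30 arrays of 13 animals. KRT18, KRT19 and KRT7 form 1 dark block. KRT5 (Bt.13162.1.S1_at), KRT17, KRT23, KRT6B and KRTAP3-1 form a less even one, and KRT5 (Bt.9044.1.S1_at) is pale against all others.

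The genes outside the family whose values were most like the mean of the 11 epithelial keratin probe sets were CKMT1A (r = 0.91), KRT15 (0.90), ANXA8L1 (0.90), NFATC3 (0.89) and IL20RA (0.89), out of 8586 other probe sets with 1 symbol. KRT15 and KRT14 are basal keratins left out of the family by the rule, and KRT14 had 0.87. For KRT25 they were SUPT4H1 (0.80), STMN1 (0.76), MB21D2, GJA1, a gap junction protein, and WLS, which carries Wnt proteins to the cell surface (0.74 each). For KRTAP3-1 they were CHAC1 (0.88 and 0.84 in 2 probe sets), KCTD15 (0.81), GGACT (0.78) and APOM (0.77). These are likenesses over 30 arrays that share animals. KRTAP3-1 was far lower in 2 of the arrays than in the others, and its likenesses were not computed without them.

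A few arrays stood apart in many keratins at once. Resistant animal 1 at 48 h was the lowest of the 30 arrays for 6 of the 13 probe sets and among the 3 lowest for 9. It was also the extreme array on the first principal component of all probe sets (65.6, with the next at 38.3). Its mean over desmosome genes was 9.31 and over cornified envelope genes 8.13, the lowest of the resistant 48 h arrays, and its mean over 6 macrophage genes was 10.41, the highest. Susceptible animal 11 at 48 h was among the 3 lowest for 7 probe sets, and susceptible animal 12 at 24 h for 5. Susceptible animal 10 at 48 h and resistant 0 h array 5 were among the 3 highest for 5 each.

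**Figure D4:**
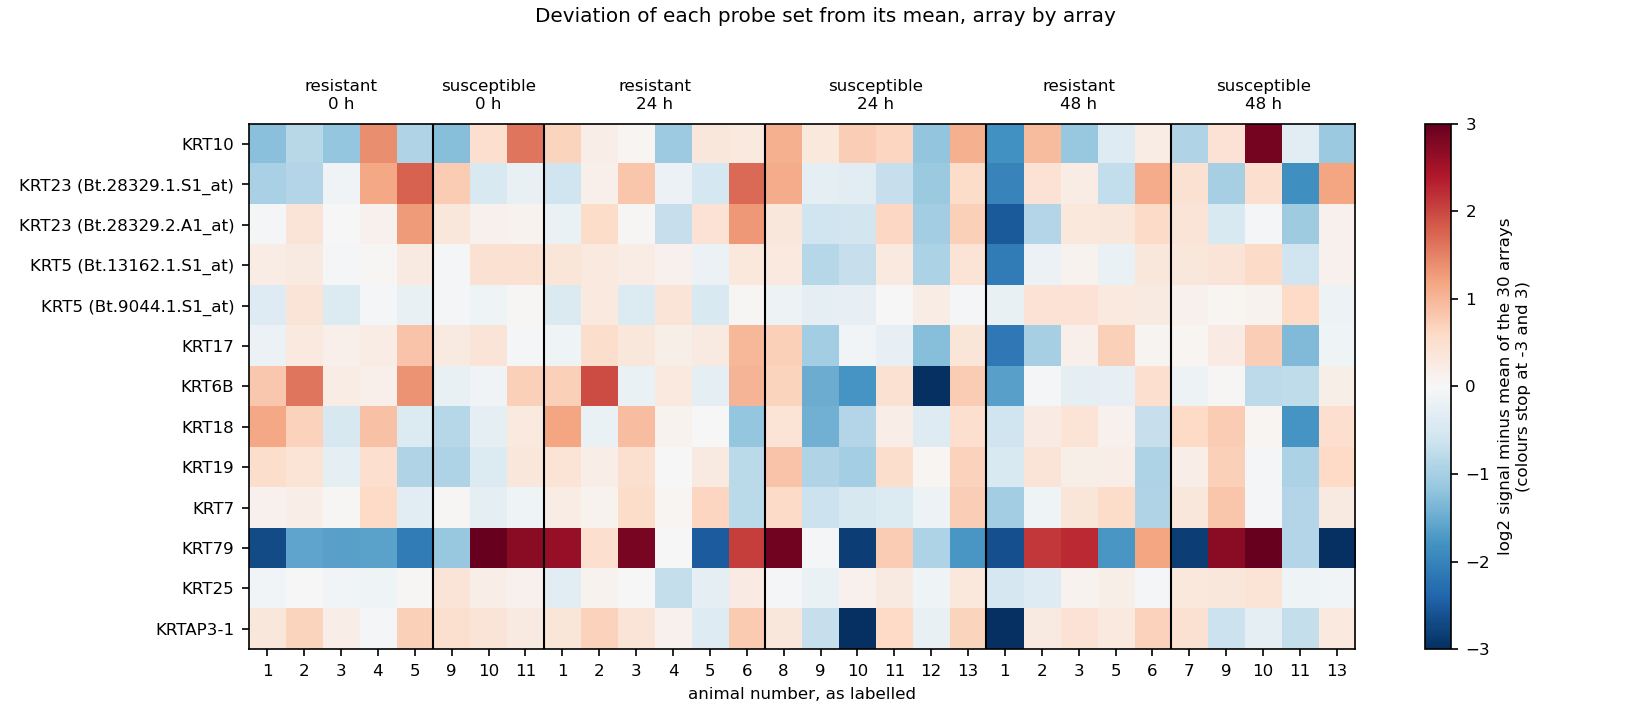
Log2 signal of each keratin probe set minus its mean over the 30 arrays (colour, ending at -3 and 3), with arrays in columns by group and animal number. The column of resistant animal 1 at 48 h is blue in nearly every row, and KRT79 runs from dark red to dark blue within most groups.

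Animal numbers were checked with 100 probe sets that split the arrays into high and low. Of 27 arrays with another array of the same number, 23 were closest to 1 of their own number. The exceptions were resistant 0 h arrays 3, 4 and 5, which were closest to the 24 h arrays of animals 4, 5 and 6, and resistant 24 h array 4. The main group comparisons do not use the number. The average over the 3 times given for KRT25 and the alternatives with the animal as a block do, and so rest on these labels.

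As a group, the 11 epithelial keratin probe sets leaned higher in resistant skin at 24 h, with 0 past the test. At 48 h they leaned lower, but not once 1 array was left out. They share the same arrays, several vary together, and KRT5 and KRT23 have 2 probe sets each, so they are not independent observations. At 24 h 9 of 11 were higher in resistant than in susceptible skin (median 0.36, against 0 over all probe sets), where 49.6% of all probe sets were higher. Without susceptible animal 12 that median was 0.17. At 48 h 2 of 11 were higher (median -0.22, against -0.04), where 42.9% of all were. Without resistant animal 1 the median at 48 h was 0.07, so that the direction rested on this array. At 0 h 7 of 11 were higher (median 0.16, or -0.07 without resistant 0 h array 5), and 48% of all.

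Within resistant skin, 10 of 11 epithelial keratin probe sets were lower at 48 h than at 24 h (median -0.51) and 8 of 11 lower than at 0 h (median -0.39), against medians of -0.02 over all probe sets in both. Over all probe sets 46.1% were higher at 48 h than at 24 h, and 47.8% higher than at 0 h. Without animal 1 at 48 h these medians were -0.16 and -0.13. At 24 h relative to 0 h 8 of 11 were higher (median 0.05, or -0.03 without 0 h array 3), and 49.7% of all. In susceptible skin 4 of 11 were higher at 24 h than at 0 h (median -0.15, and 47.4% of all probe sets) and 4 of 11 at 48 h (median -0.12, or 0.07 without animal 11 at 48 h, and 48.1% of all). At 48 h relative to 24 h 8 of 11 were higher in susceptible skin (median 0.18, and 52.1% of all). The response at 24 h was higher in resistant than in susceptible animals in 8 of 11 (median 0.18, and 52.3% of all), and the response at 48 h in 3 of 11 (median -0.43, and 46.7% of all), with a median of 0 without resistant animal 1. Comparisons of times and of phenotypes use the same groups and are not independent, nor are the 11 probe sets.

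**Figure D5:**
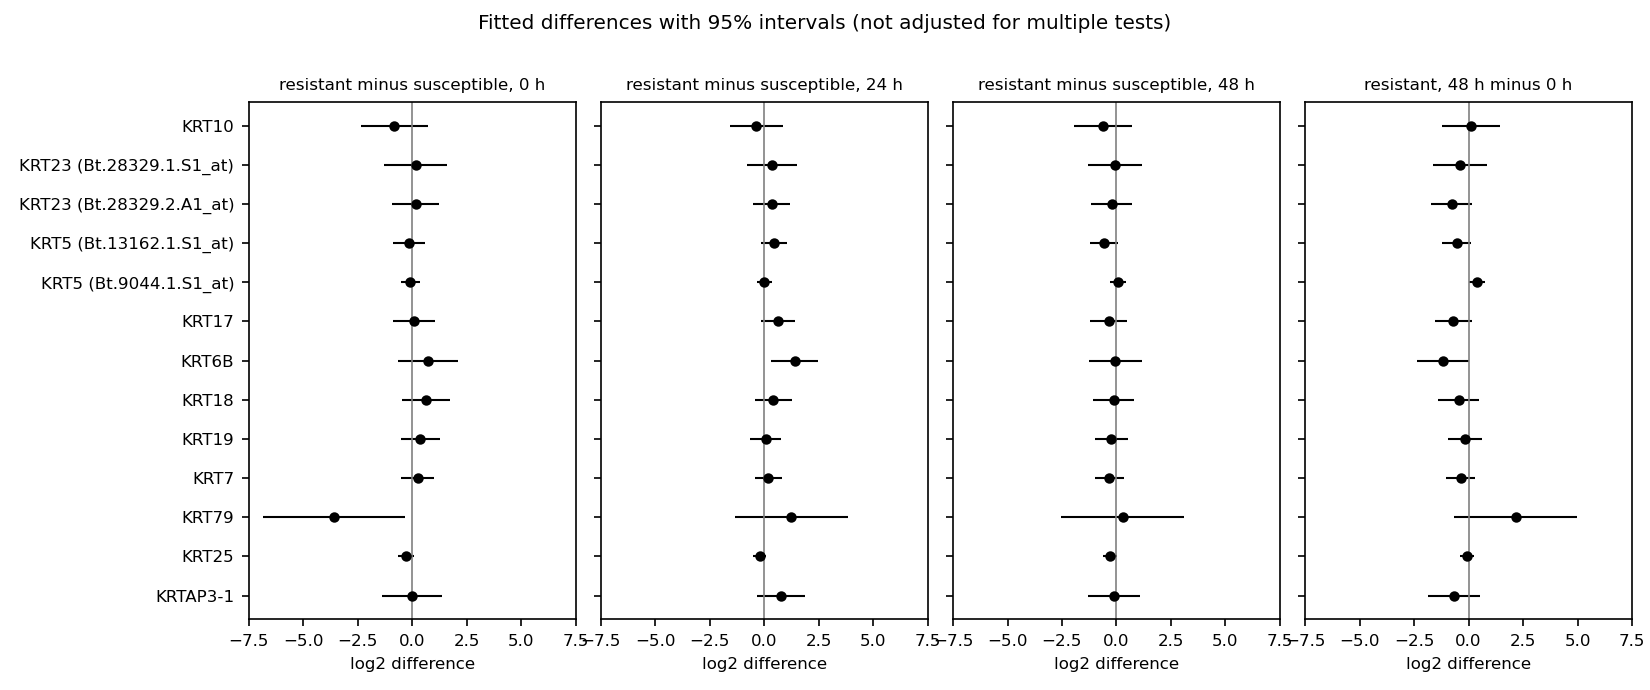
Log2 difference with its 95% interval, not adjusted for multiple tests, of the 13 keratin probe sets in resistant minus susceptible skin at 0 h, 24 h and 48 h and in resistant skin at 48 h minus 0 h. The intervals of KRT79 at 0 h, KRT6B at 24 h and KRT5 (Bt.9044.1.S1_at) at 48 h minus 0 h leave out 0.

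Other genes of the epidermis and follicle are given from lists, with 0 kept members of any list past the test in any comparison. Kept were 5 of 35 cornified envelope genes, 9 of 16 desmosome and keratin linker genes, 10 of 28 hair follicle genes and 5 of 8 sebaceous genes. Counts, medians and correlations cover these kept genes, not the whole lists. Genes of a list were read on the same arrays, so such counts are not independent observations. Over all probe sets 47.8% were higher in resistant skin at 48 h than at 0 h (median -0.02). Between phenotypes, 49.6% of all were higher in resistant skin at 24 h and 42.9% at 48 h. In resistant skin at 48 h relative to 0 h, 0 of 9 desmosome and keratin linker genes were higher (median -0.72), 0 of 10 hair follicle genes (-0.52), 2 of 5 cornified envelope genes (-0.11) and 2 of 5 sebaceous genes (-0.15). Against susceptible skin at 48 h, 0 of 9 desmosome genes were higher (median -0.50), and the median was -0.27 without resistant animal 1. Those of smallest p were DSG1, a cadherin of the upper epidermis, with -0.71 ± 0.24 (adjusted p = 0.311), and PERP with -0.50 ± 0.20, and DSC3, PKP2 and DSC1 lay between them in size. At 24 h 5 of 5 cornified envelope genes and 7 of 9 desmosome genes were higher in resistant skin (medians 0.77 and 0.31). Without susceptible animal 12 the first of these medians was 0.43. Without resistant animal 1 at 48 h the medians at 48 h relative to 0 h were -0.52 for desmosome genes, -0.37 for follicle genes and 0.37 for cornified envelope genes.

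Markers of the other cells that a skin biopsy holds are given beside these values, again with 0 past the test. Kept were 3 of 6 melanocyte, 3 of 5 adipocyte, 2 of 5 sweat gland and 5 of 6 endothelial genes, and all genes of the other lists. Of all probe sets, 47.8% were higher in resistant skin at 48 h than at 0 h. In resistant skin at 48 h relative to 0 h, 6 of 6 macrophage genes (median 0.92), 6 of 6 smooth muscle genes (0.62), 5 of 5 endothelial genes (0.57), 7 of 7 fibroblast genes (0.17) and 5 of 5 T cell genes (0.16) were higher, and 1 of 3 adipocyte genes (-0.28), 0 of 3 melanocyte genes (-0.98) and 0 of 2 sweat gland genes (-0.34). The mean of the macrophage genes lay between 9.53 and 10.41 in resistant skin at 48 h, against 7.20 to 9.41 in susceptible skin at 48 h and 8.33 to 9.30 in resistant skin at 0 h. Of these genes C1QC, a complement subunit made by macrophages, had 1.67 ± 0.35 in resistant minus susceptible skin at 48 h (limma adjusted p = 0.0787). Of all single probe sets, 1.19% had resistant and susceptible arrays that did not overlap at 48 h. The lists were chosen with earlier results of these data known, so these macrophage values are descriptions and carry no independent support. The part of these markers in the keratin values was not tested.

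Of the 18 gene identifiers annotated to the 24 probe sets, 17 were found in RefSeq (assembly ARS-UCD2.0), and there they lie on 2 chromosomes. KRT10, KRT17, KRT19, KRT20, KRT23, KRT25 and KRTAP3-1 share 1 chromosome, and the type II keratins and KRT18 the other. Their order along the chromosomes was not examined. Genes of both chromosomes were in each of the sets that varied together across arrays.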

How the data were processed

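Total RNA of skin biopsies kept in RNAlater was amplified from 50 ng with a 3' kit and hybridised to a bovine expression array, per the labels. The deposited values are log2 signals that the authors made with MAS5, per the submitters' processing notes, with no version given. Tested on the values, the linear signal of each array had a 2% trimmed mean of 500. Scan dates, detection calls and a genome build are not given in the sources used here, so no coordinates are printed and no array batch could be tested.

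The log2 values were used as deposited. After removal of 112 controls from 24128 probe sets, the 13809 that reached their array's median on 3 or more of the 30 arrays were kept. Symbols came from the platform annotation (13292 probe sets with 1 symbol, 86 with several, 10638 with none). Group means of phenotype by time were fitted with limma 3.58.1 in R 4.3.3 (lmFit, eBayes with an intensity trend). Tests were two-sided and adjusted by Benjamini and Hochberg over the 13809. The code was tested on simulated data. In lists, a gene was read by its kept probe set of highest mean, and a gene with no kept probe set was left out.

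The keratin family and the 12 gene lists were chosen with earlier results of these data known. Named were the 3 keratin probe sets of smallest p in each comparison, KRT5 and KRT10, the highest and most variable of each role, the 5 probe sets most like each class, and 2 genes a list at most. Lists and single correlations added later are descriptions. Same-numbered arrays come from the same animal by the labels' titles. The check by 100 two-level probe sets put 3 resistant 0 h arrays nearest to another number. Figures used matplotlib 3.10.9 in Python 3.11.15. Alternatives were quantile normalization, median centring, no filter, the animal as a random or fixed block, only the groups compared, no intensity trend and leaving out each array. An offset of 16, the fixed block without the 3 doubtful arrays and the average over times were added after the data were seen.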

Additional observations from a re-analysis of the deposited data

Results flagged for a closer look

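In 9 of 65 sets of values, each of 1 probe set in 1 group of 5 or 6 arrays, 1 array lay further from the rest than Dixon's test allows. Susceptible skin at 0 h, with 3 arrays, was left out. Chance alone gives about 1 in 20 for independent sets. These sets share arrays and their probe sets correlate, so that rate is no fair measure for the count. Resistant animal 1 at 48 h accounted for 3, with 12.15 and 8.32 in the 2 KRT5 probe sets (Bt.13162.1.S1_at and Bt.9044.1.S1_at; the nearest others had 14.05 and 8.82) and 11.11 in KRTAP3-1 (nearest 14.49). KRTAP3-1 was also low in susceptible animal 10 at 24 h, with 10.88 (nearest 13.52). KRT10 was high in resistant 0 h array 4 with 12.68 (nearest 10.46), and low in resistant animal 4 at 24 h with 10.19 (nearest 11.35) and in susceptible animal 12 at 24 h with 10.11 (nearest 11.60). KRT18 was low in susceptible animal 11 at 48 h with 7.99 (nearest 9.81), and KRT19 in resistant animal 6 at 24 h with 11.49 (nearest 12.30).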

How the results depend on the processing

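The count of keratin probe sets past the threshold was 0 in each of the 11 comparisons under every alternative run, except that the animal as a fixed term could be fitted only for the 8 comparisons that involve times, with 0 in each. The replicate block left it at 0 too: the animal as a random block (consensus correlation 0.14) gave 0 keratin probe sets in resistant skin at 48 h minus 0 h, as did the animal as a fixed term, which called 84 of all probe sets there, against 0 with no block and 3 without the 3 doubtful arrays. Over all probe sets the count for resistant minus susceptible skin at 48 h was 2, 10 after median centring, 4 with no filter and 0 when only the arrays of those groups were fitted. Of 143 differences of 1 keratin probe set, 58 turned sign when some single array was left out, and 10 of the 58 had a size of 0.3 or more (KRT23 in 3, KRTAP3-1 and KRT10 in 2 each, KRT79, KRT17 and KRT6B in 1 each). Among the 3 of smallest p in each comparison, 2 turned. KRT25 in resistant skin at 24 h minus 0 h was -0.10 and ranged from -0.18 to 0.01, the last without resistant animal 4 at 24 h. KRT6B in susceptible skin at 48 h minus 24 h was 0.51 and ranged from -0.02 to 0.82, the first without susceptible animal 12 at 24 h. Both alternatives hold fewer arrays; the cause was not tested. KRT79 in resistant minus susceptible skin at 0 h ranged from -3.59 to -2.25 over 7 alternatives, and KRT25 there from -0.29 to -0.05. The number of arrays limits what could be called: the 95% interval of KRT10 between phenotypes at 48 h ran from -1.96 to 0.71.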
